A study of Mus musculus with 2 samples.

Results

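The 5 genes described here are the miRNA hairpins at the imprinted loci of Igf2 (Mir483), H19 (Mir675), Mest (Mir335) and Gnas (Mir296 and Mir298). The rule that picks them uses genomic position and no measured value, and they make up 5 of the 2202 miRNA genes in the count tables. MicroRNA sequencing was done on adrenal gland RNA from 2 female B6CASTF1/J mice, an F1 hybrid strain, at 2 months of age. No treatment or mutation was named, and the labels form 1 group of 2 replicates, so no conditions could be compared. Both samples carry the same donor label and are numbered as different females only in their tissue labels. If they are not separate animals, the spread given here is technical.

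Imprinted genes are expressed only or mainly from the chromosome inherited from 1 parent, some of them in certain tissues or transcripts only. This is under the control of DNA methylation set in the germ line. A miRNA made from the transcript of an imprinted gene can share that parental origin. Igf2, a fetal growth factor, and Mest are known as paternally expressed, whereas H19, a noncoding RNA that limits growth, is maternally expressed. Gnas encodes the stimulatory G protein subunit through which the ACTH receptor of the adrenal cortex signals, and its antisense transcript Nespas is paternally expressed. Counts per hairpin do not separate the parental alleles or the arms of a hairpin, so neither was measured.

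The mature sequences of all 5 genes were taken from RefSeq (GRCm38.p6) and are shown because the seed, bases 2 to 8 in capitals, sets which messages a miRNA can pair with.
miR-335-5p: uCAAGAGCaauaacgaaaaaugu
miR-335-3p: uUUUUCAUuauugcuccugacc
miR-298-5p: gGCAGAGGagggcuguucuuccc
miR-298-3p: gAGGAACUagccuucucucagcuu
miR-296-5p: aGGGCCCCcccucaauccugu
miR-296-3p: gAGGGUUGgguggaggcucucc
miR-483-5p: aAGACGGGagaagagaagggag
miR-483-3p: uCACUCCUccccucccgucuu
miR-675-5p: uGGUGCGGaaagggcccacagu
miR-675-3p: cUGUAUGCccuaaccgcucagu

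The 10 arms carried 10 different seeds, and none of these seeds occurred in an arm of another gene among the 1738 mature sequences of the RefSeq table. No hairpin of the 5 shared a stretch of 20 bases with another annotated miRNA hairpin. Apart from H19, which contains both arms of Mir675, no other GENCODE M21 transcript held any of the 10 mature sequences on either strand. Matches elsewhere in the genome were not examined, nor were sequence variants of the hybrid's parent strains in the hairpins. Mir335 was the least GC-rich, with 42.9% G and C in its hairpin, against 53.7% for Mir298, 58.9% for Mir483, 63.1% for Mir675 and 63.3% for Mir296. The median over all 2202 hairpins was 50.8%.

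The 4 hairpins at Igf2, Mest and Gnas were present in both libraries, and the H19 hairpin had no read in either. Mir335 was the most abundant, followed by Mir298, Mir296 and Mir483, and this order was the same in both libraries. Counts on the strand of the gene totalled 2839732 in replicate 1 and 2280028 in replicate 2, and levels are counts per 1000000 of these totals (CPM). Detection required at least 10 counts in each library, which was met by 4 of the 5 genes (80.0%) and by 342 of all 2202 genes (15.5%). Together the 5 genes held 11372 counts in replicate 1 and 9861 in replicate 2, or 0.416% ± 0.0227 of all gene counts (SD, n = 2). With reads aligned to several places in the denominator the share was 0.213%. None of them had a count on the opposite strand.

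Reads of a mature miRNA are not expected to scale with the length of its hairpin, so levels were compared without scaling by length. How efficiently each sequence was captured in the libraries was not measured. Differences in level between genes are therefore differences in reads and may not equal those in molecules. Expressed as mean CPM per 100 bases of hairpin, the order of the 5 genes was the same. The levels are shown in the plot of CPM by gene.

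**Figure D1:**
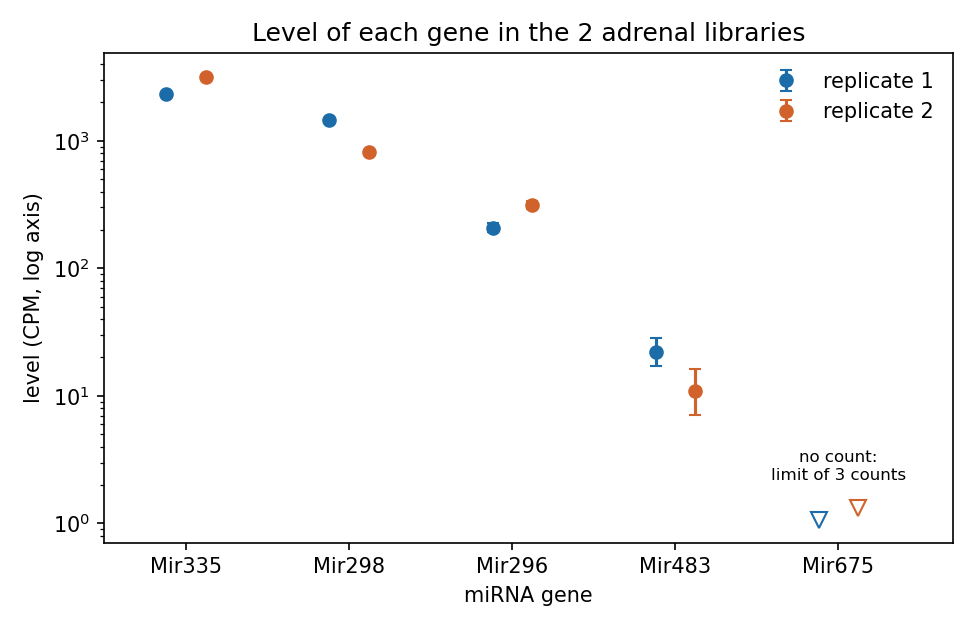
Level of the 5 miRNA genes in CPM (log axis) in each of the 2 adrenal libraries. Points are single libraries, bars are exact 95% Poisson intervals (counting error only), and open triangles mark the limit of 3 counts for Mir675, which had no count. No gene's points reach the range of the next gene in the order.

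Mir335 lies in an intron of Mest on the same strand (mm10, chr6:30741299-30741396, plus strand; ENSMUSG00000065501.1) and is intronic in all 7 Mest transcripts that span it. Its host encodes an enzyme of the hydrolase fold family, and miR-335 is best known as a suppressor of metastasis in tumour studies. It had 6609 counts in replicate 1 and 7274 in replicate 2, or 2327 CPM (95% interval 2272 to 2384) and 3190 CPM (3117 to 3264). The mean of 2759 ± 610.2 CPM (SD, n = 2) placed it at rank 49 of 2202 genes. Mir335 made up 58.1% of the counts of the 5 genes in replicate 1 (exact 95% interval 57.2 to 59.0) and 73.8% in replicate 2 (72.9 to 74.6).

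The genes closest to Mir335 in level over the 2 libraries were Mir615 in the Hoxc cluster, at 2761 ± 19.1 CPM, and Mir130a, at 2748 ± 86.0 CPM. Both differences in mean were smaller than the SD of Mir335. Mir335 was below Mir615 and Mir130a in replicate 1 and above them in replicate 2.

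Within 1 Mb of Mir335, 5 of 6 other miRNA genes were detected and all of these lie on the opposite strand. Mir29a, a regulator of extracellular matrix genes 321 kb away, was at 6601 and 7950 CPM, above Mir335 in both libraries. Its neighbour Mir29b-1 was at 48.9 and 25.4 CPM. As for all genes here, reads aligned to several places were not counted. The sensory and neuroendocrine cluster 572 to 575 kb away held Mir182 (720 and 876 CPM), Mir183 (527 and 370 CPM) and Mir96 (15.8 and 23.7 CPM), all below Mir335 in both libraries.

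Mir298 and Mir296 are neighbours at the Gnas locus, both on the minus strand, opposite to Gnas and in the direction of Nespas. Mir298 occupies chr2:174267504-174267585 (ENSMUSG00000065410.1) and Mir296 chr2:174267047-174267125 (ENSMUSG00000065521.1), with 378 bases between them. In GENCODE M21 neither overlaps another annotated transcript. They lie 13.7 and 14.1 kb beyond the annotated 3′ end of Nespas, so their place within that transcript is not part of this annotation. Their hairpins are shown because these neighbours differed in level and in how they varied, with both mature arms in capitals.
Mir298: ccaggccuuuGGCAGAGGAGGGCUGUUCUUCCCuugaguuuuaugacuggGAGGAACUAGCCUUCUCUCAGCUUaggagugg
Mir296: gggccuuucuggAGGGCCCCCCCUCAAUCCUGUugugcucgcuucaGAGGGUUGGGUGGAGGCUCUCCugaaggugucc

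The hairpins are 82 and 79 bases long, and their computed folding energies were close, at -42.7 kcal/mol for Mir298 and -43.2 kcal/mol for Mir296.

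Mir298 had 4108 counts in replicate 1 and 1849 in replicate 2, or 1447 CPM (1403 to 1492) and 811 CPM (774 to 849). Its mean was 1129 ± 449 CPM (SD, n = 2), rank 76. Mir296, known from work on blood vessel growth, had 592 and 713 counts, or 208 CPM (192 to 226) and 313 CPM (290 to 337). Its mean was 261 ± 73.7 CPM (SD, n = 2), rank 143. Mir298 was above Mir296 in both libraries, by 6.94-fold in replicate 1 and 2.59-fold in replicate 2. Mir298 made up 36.1% of the counts of the 5 genes in replicate 1 and 18.8% in replicate 2, and Mir296 made up 5.21% and 7.23%.

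In level, Mir298 stood between Mir146, an inflammation-related miRNA, at 1167 ± 267 CPM and Mir425 at 1122 ± 186 CPM. Mir296 stood between Mir350 at 262 ± 144 CPM and Mir300 of the Dlk1-Dio3 region at 233 ± 8.91 CPM. Each of these 4 means lay within the SD of Mir298 or Mir296, whichever it bordered. Of the other 2 miRNA genes within 1 Mb of this pair, neither was detected.

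Mir483 lies on the strand of Igf2 (chr7:142654924-142654996, minus strand; ENSMUSG00000070140.1), in an intron of all 7 Igf2 transcripts that span it. It is also intronic in the single spanning transcript of Gm49394, a protein-coding model that overlaps Igf2. miR-483 is known for its high level in adrenocortical carcinoma, where IGF2 is often raised too. In these glands it was low, with 63 counts in replicate 1 and 25 in replicate 2, or 22.2 CPM (17.0 to 28.4) and 11.0 CPM (7.10 to 16.2). Its mean was 16.6 ± 7.93 CPM (SD, n = 2), rank 283. Mir296, the next gene above it, exceeded it 9.40-fold in replicate 1 and 28.5-fold in replicate 2. None of the 3 other miRNA genes within 1 Mb was detected. The genes closest to Mir483 in level were Mir219a-1 at 17.1 ± 3.75 CPM and Mir3057 at 16.3 ± 6.67 CPM.

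Mir675 lies in H19 on the same strand (chr7:142577064-142577147, minus strand; ENSMUSG00000076275.1), 77.8 kb from Mir483. It is exonic in 3 of the 4 H19 transcripts that span it and intronic in the other. miR-675 is known from placenta, where it limits growth. It had 0 counts in 2839732 and 0 in 2280028, which allows up to 3 counts, or 1.06 CPM in replicate 1 and 1.32 CPM in replicate 2. The counts of Mir483 were 21-fold this limit in replicate 1 and 8.33-fold in replicate 2, without regard to their own counting error. A count of 0 was common, since 1463 of the 2202 genes had none in either library. Counts of Mir675 do not measure the H19 transcript itself, whose level is not analysed here.

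**Figure D2:**
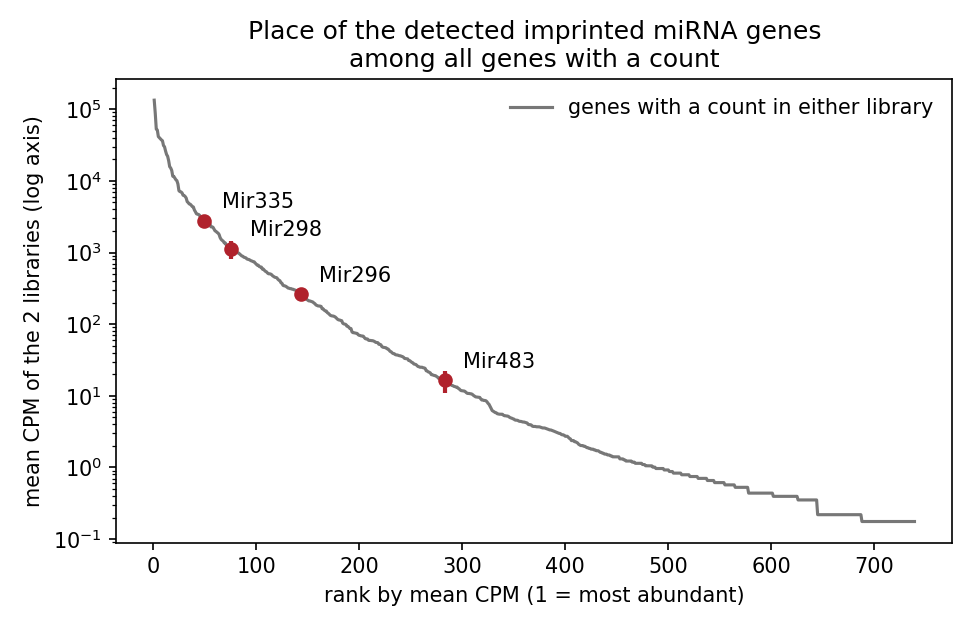
Mean CPM of the 2 libraries (log axis) against rank for every miRNA gene with a count in either library (grey line). Red points are the 4 detected imprinted genes and red bars join their values in the 2 libraries. Mir335 is at rank 49, Mir298 at 76, Mir296 at 143 and Mir483 at 283, while Mir675, with no count, is not drawn.

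The 4 detected genes did not vary together between the libraries. Mir335 and Mir296 were higher in replicate 2, with exact 95% intervals of 1.33- to 1.42-fold and 1.34- to 1.68-fold. Mir298 and Mir483 were higher in replicate 1, by 1.78-fold (1.69 to 1.89) and 2.02-fold (1.25 to 3.36). The 369 genes whose counts averaged 10 or higher were compared by an exact two-sided binomial test with Benjamini-Hochberg adjustment over all of them. The test compares these 2 libraries, not conditions, and covers counting error only.

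Counting error was exceeded in all 4, with exact binomial adjusted p-values of 4.19e-76 for Mir335, 8.44e-100 for Mir298, 9.55e-13 for Mir296 and 0.00490 for Mir483. This was common, since 231 of the 369 genes (62.6%) had an adjusted p under 0.05 in this test. With a difference of at least 2-fold also required, 1 of the 4 passed, Mir483, beside 18.7% of all tested genes. Mir483 lay at that limit and did not pass with counts taken without regard to strand (log2 ratio of replicate 2 to replicate 1 of -0.96). Its own counts were the same there, at 63 and 25, and only the totals differed, at 2492422 and 1925204. It also did not pass without muscle and erythroid genes in the totals (-0.998).

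The log2 ratios were 0.46 for Mir335, 0.59 for Mir296, -0.83 for Mir298 and -1.02 for Mir483, with a median size of 0.71. Over all 369 genes the median size was 0.45. A larger difference than that of Mir335 was found in 48.2% of the tested genes, than that of Mir296 in 38.2%, than that of Mir298 in 24.4% and than that of Mir483 in 18.4%. The ratios of these genes therefore lay within the range that many miRNA genes showed between the libraries, as the plot of ratios by level shows.

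**Figure D3:**
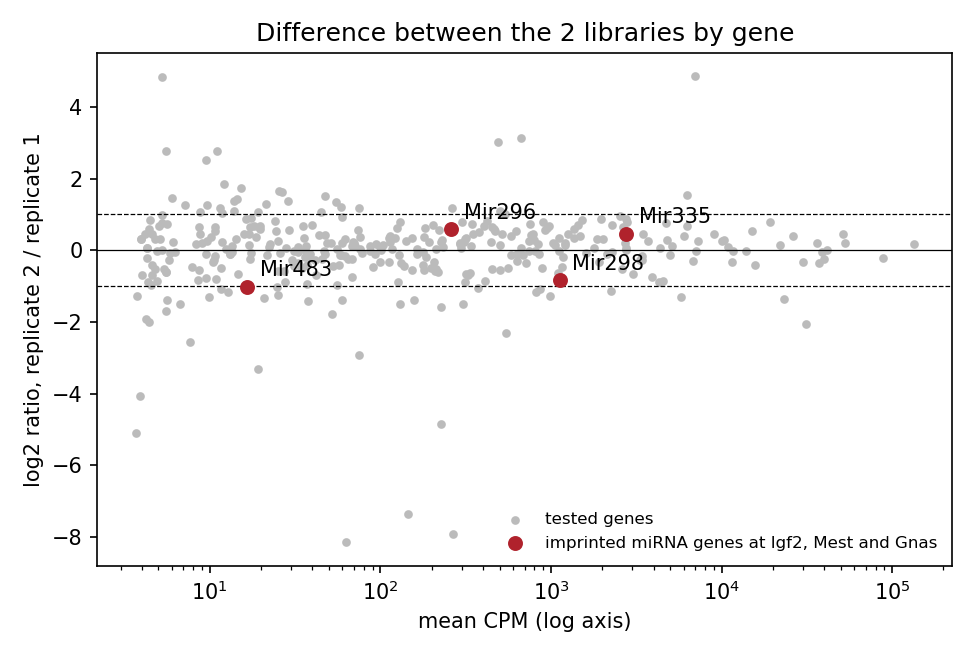
Log2 ratio of replicate 2 to replicate 1 against mean CPM (log axis) for the 369 miRNA genes tested. Red points are the imprinted genes, grey points all other genes, and dashed lines mark a 2-fold difference; Mir335 and Mir296 lie above 0, Mir298 and Mir483 below, and Mir483 at the lower dashed line.

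Marker miRNAs of other cell types also differed between the libraries, and sums can hide members that go the other way. The summed level of 9 skeletal and heart muscle miRNAs was 953 CPM in replicate 1 and 4.39 CPM in replicate 2. Mir133a-1, Mir133a-2 and Mir133b were at 0 in both. Reads aligned to several places were assigned to no gene, so a 0 here does not show that a miRNA was absent. The 3 erythroid miRNAs summed to 643 and 14488 CPM through Mir451a and Mir144, while Mir486 was at 65.9 and 58.3 CPM. The 4 white blood cell miRNAs summed to 1331 and 1051 CPM, with Mir223 at 133 and 17.5 CPM but Mir142 at 210 and 213 CPM and Mir155 at 329 and 354 CPM. The endothelial Mir126a was at 43203 and 59463 CPM, 1.38-fold higher in replicate 2. The 2 smooth muscle miRNAs summed to 22164 and 24400 CPM, and the liver miRNA Mir122 was at 3721 and 2358 CPM. The 9 kidney and epithelium miRNAs summed to 213 and 147 CPM. Of 7 chromaffin or neuroendocrine miRNAs, 5 were found by symbol and summed to 43784 and 41195 CPM, mostly through Mir375 at 39421 and 37780 CPM. The other 2, listed as Mir7a-1 and Mir7a-2, were not found under those symbols. Genes named Mir7-1 (213 and 146 CPM) and Mir7-2 (40.8 and 77.6 CPM) were counted but are not in this sum. Among the 5 summed, Mir375, Mir7b and Mir183 were lower in replicate 2, and Mir182 and Mir96 were higher. Such cells make up the medulla of the labelled tissue. No miRNA list confined to adrenal cortex was available. The part of these cells in the ratios of the imprinted genes was not tested. In such whole-gland RNA, fewer cells of a type and less RNA per cell cannot be told apart.

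The ratio of Mir298 to Mir296 was examined further after their values were seen, because it needs no scaling of the libraries. It was 6.94 in replicate 1 (exact 95% interval 6.36 to 7.58) and 2.59 in replicate 2 (2.38 to 2.83), a change of 2.68-fold (2.36 to 3.03). Fisher's exact test of the 4 counts gave an adjusted p of 9.92e-56 over all 72 pairs of neighbouring hairpins on 1 strand, with at most 1 kb between them and a mean count of at least 10 each. Of the 72 pairs, 29.2% had an adjusted p under 0.05 and a change of at least 2-fold, and 8 changed more than Mir298 and Mir296. At a mean count of at least 100 for both hairpins, 3 of 47 pairs changed more. This test, too, covers counting error only, and the pair was picked for its divergence, so its p is a description of these libraries. In 36 of the 72 pairs the log2 ratios of the neighbours had opposite signs, whatever their size, and 18 of these pairs passed the test. A divergence of neighbouring hairpins was thus not particular to the Gnas locus. Near Mest, 2 pairs also passed, with a log2 change of -1.21 from Mir29a to Mir29b-1 and of -1.09 from Mir96 to Mir183. These changes cover uniquely placed reads only. Mir29b-1 had 139 and 58 counts, against 18746 and 18126 for Mir29a.

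**Figure D4:**
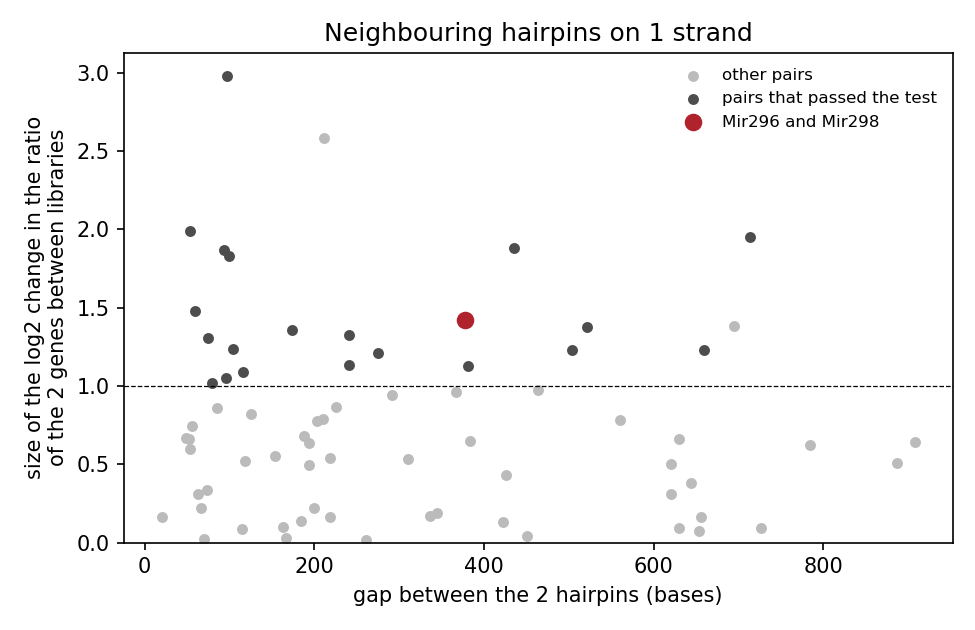
Size of the log2 change in the ratio of 2 neighbouring hairpin genes between the libraries, against the gap between the hairpins in bases, for 72 pairs on 1 strand. The red point is Mir296 and Mir298 (gap 378 bases, change 1.42), dark points are other pairs that passed the test, and the dashed line marks 2-fold; 8 pairs lie higher than the red point.

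The other imprinted miRNA regions were set beside these loci. Reads were counted on mm10 alone, and any loss of reads at strain variants of the hybrid was not examined. Dlk1-Dio3, whose miRNAs are maternally expressed, held 5.33% ± 0.949 of the gene counts (SD, n = 2) from 67 annotated hairpins, of which 51 were detected. All 5 genes at Igf2, H19, Mest and Gnas together held less than its most abundant member, Mir127, which was at 13998 and 24356 CPM against their sums of 4005 and 4325 CPM. Mir335 was also below Mir379, the next gene of that region, at 4902 and 5359 CPM. In contrast, the paternally expressed Sfmbt2 cluster held 0.0652% ± 0.00861, with 6 of 119 hairpins detected. Mir335 and Mir298 each exceeded all of it, since its summed level was 591 and 713 CPM. This holds for uniquely placed reads only, since reads with several alignments were assigned to no gene, and 108 of the 119 hairpins had no count in either library. Its leading gene, Mir467d, was at 295 and 401 CPM, above Mir296 in both libraries. The median log2 ratio of replicate 2 to replicate 1 was -0.19 for the 4 tested genes, 0.02 for 51 of Dlk1-Dio3, 0.15 for 6 of Sfmbt2 and 0.07 for all tested genes.

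A list of 9 other miRNAs known from adrenocortical tumours gave a further setting for the levels of Mir483 and Mir335. All 9 were detected, and 1, Mir195a, passed the between-library test, as higher in replicate 1 (1124 against 501 CPM), beside the 18.7% of all genes. Mir139 (43281 and 36758 CPM) and Mir375 (39421 and 37780 CPM) were above Mir335 in both libraries. Mir214, Mir195a, Mir497, Mir210, Mir503 and Mir184 had means from 1055 down to 57.1 CPM, between Mir335 and Mir483. Mir511, at 9.66 ± 1.22 CPM, was the only 1 of the 9 with a mean below that of Mir483, and the difference in means was smaller than the SD of Mir483. The median log2 ratio of the list was 0.15.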

How the data were processed

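The authors deposited a table of raw read counts per miRNA gene for each library, with columns for both strands jointly, the sense strand and the antisense strand. Per the file headers deposited with them, mm10 was the assembly and M21 the GENCODE annotation. For the aligner and the counter, names and versions are not given in the sources used here. The sense column, which had the larger total of the stranded columns, was used. All 2202 identifiers matched GENCODE M21. The 4 rows that name no gene were left out: unmapped (29.8% and 39.7% of the reads of replicates 1 and 2), aligned to several places (28.8% and 25.3%), outside genes (10.8% and 8.60%) and ambiguous (8.62e-05% and 0%).

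A count was worth 0.352 and 0.439 CPM. Libraries carry no stated molecular identifiers, so intervals (Poisson, Clopper-Pearson or conditional binomial) and floors of 3 counts cover counting error only. Tests used SciPy 1.17.1, and the scaling alternatives edgeR 4.0.16. edgeR's common biological coefficient of variation was 44.8%. With 2 samples the smallest exact p over samples is 0.5, so none was run. Folding energies came from ViennaRNA 2.7.2. The binomial test was checked on simulated counts that varied by counting error only, so its behaviour under wider spread was not checked. Fisher's test of pairs was not checked by simulation. The set of genes, the lists and the comparisons were proposed with earlier results of these data known, although the rule for the genes uses position alone. Besides the 5 genes, those named were the nearest above and below each in mean CPM, detected genes within 1 Mb, the 2 leading genes of each imprinted region, the tumour list and the markers. The pair comparison and the setting without muscle and erythroid genes were added after the data were seen.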

Additional observations from a re-analysis of the deposited data

How the results depend on the processing

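The levels of Mir335, Mir298, Mir296 and Mir483 moved by no more than their SD with TMM or median-of-ratios scaling or with counts taken without regard to strand, and Mir675 stayed at 0. The share held by the 5 genes ran from 0.400% to 0.432% with either library left out, was 0.484% with counts taken without regard to strand and 0.213% with reads aligned to several places in the denominator. Without regard to strand, the counts of the 5 genes were the same and only the totals were lower. Some other genes had 0 there, such as Mir378a, with 138651 and 129232 counts on its own strand. Of the 5 genes, 4 were detected at minimums of 1, 5 and 20 counts. The number past the between-library test went from 1 to 0 with counts taken without regard to strand, at a mean count of at least 100 (Mir483 is then not tested) and without muscle and erythroid genes, and to 4 with no minimum fold. Over all genes 69 passed, 33 at a mean count of at least 100 and 231 with no minimum fold. Adjusted p-values of Mir483 ran from 0.00174 to 0.00965 over the alternatives. TMM and median-of-ratios scaling lowered every log2 ratio by 0.09 and 0.07 and changed no direction or call of the 4 tested genes of the 5. Of the genes that passed, 32 were higher in replicate 2 and 37 in replicate 1. The balance was 26 and 39 with TMM, 27 and 39 with median-of-ratios scaling and 12 and 21 when counts had to average 100 or higher, and it turned to 30 and 29 with counts taken without regard to strand and to 132 and 99 with no minimum fold. No paired analysis was possible because the labels give a single group.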
